A study of Homo sapiens with 2 samples.

Results

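The genes described here are the nuclear genes of respiratory complexes II to V, with the carrier cytochrome c. They were taken by name as the rows that begin with SDHA, SDHB, SDHC, SDHD, UQCR, UQCC, COX or COA plus a digit, or ATP5, or that are CYC1 or CYCS, leaving out names with a hyphen and names ending in P plus a number. This gave 69 genes in 71 rows, of 55771 gene names in 57773 rows, and 61 of the 69 reached 1 RPKM (reads per kb of exon, scaled to the library's mapped reads) in at least 1 library and are called measured. RNA came from BFTC 905, an established urothelial carcinoma cell line. The vector control library was made from cells transfected with pcDNA3.1-myc-His (-) A, and the ANGPTL4 library from cells transfected with a plasmid that overexpresses ANGPTL4, a secreted inhibitor of lipoprotein lipase. Both kinds of cell had been kept under 400 ug/ml G418 to select stable transfectants, and whether each library holds 1 clone or several is not given in the sources used here.

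There was 1 library per group. No test between groups was possible, and each difference is a difference between these libraries. The steps of the RPKM values corresponded to 6572767 reads for the control and 3233596 for ANGPTL4, a 2.03-fold gap in depth, so 1 read on 500 bases of exon was worth 0.304 and 0.619 RPKM. ANGPTL4 itself was at 3.92 RPKM with the vector and 91.2 RPKM with the ANGPTL4 plasmid, as labelled. Of 12 urothelial or epithelial markers 11 were measured, with summed levels of 1661 and 1624 RPKM, while none of 5 endothelial and none of 6 muscle markers reached 1 RPKM, 1 of 8 fibroblast markers did (COL1A1) and 2 of 7 leukocyte markers did (CD14 and CD68).

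Complex II, succinate dehydrogenase, passes electrons from succinate to ubiquinone and is the only one of these complexes built wholly from nuclear genes. Complex III hands the electrons to cytochrome c, complex IV (cytochrome c oxidase) hands them to oxygen, and complex V (ATP synthase) uses the proton gradient, which complexes I, III and IV build, to make ATP. Complexes III to V join subunits made in the cytosol with subunits encoded by mitochondrial DNA, and need assembly factors that insert haem, copper and membrane subunits but do not stay in the finished enzyme.

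Most of these genes were at a lower level in the ANGPTL4 library. Of the 61 measured, 47 had a lower value and 14 a higher one, with a median log2 ratio of -0.50, where the log2 ratio is that of RPKM plus 1, ANGPTL4 over control. Over all 11801 measured genes the median was -0.11 and 64.4% had a lower value. At least 1.5-fold lower on this scale were 25 members (41.0%, against 9.25% of all measured genes) and at least 1.5-fold higher were 2 (against 3.08%). At least 2-fold lower were 5 members, SDHC, SDHD, ATP5H, ATP5E and COX11 (against 1.92%), and none was 2-fold higher (against 1.19%).

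Scaling moved these counts, though not the order of the medians. After centring on the median gene 2 members were 2-fold lower, SDHC and SDHD (against 1.18% of all measured genes), and 1 was 2-fold higher, ATP5J2 (against 1.54%). The 1.5-fold counts became 19 lower and 4 higher after centring (against 5.89% and 4.64% of all measured genes), and 15 lower and 6 higher after upper-quartile scaling (against 5.47% and 4.91%). The median of the members was below that of all measured genes by 0.30 to 0.41 under every setting in which the whole table was rescaled, filtered or corrected. Exact 95% intervals of the ratio, from the recovered reads, lay below 1 for 40 members, above 1 for 9 and included 1 for 12, against 26.8% below and 8.63% above over all measured genes. Abundant genes have narrower intervals. Of the 45 members with at least 10 RPKM in the control 33 lay below 1 and 7 above, against 43.3% and 12.1% of the other protein-coding genes at that level. Where exon length could not be fixed, reads are minimum numbers and intervals are wide, so these background shares may be too low. The sign of 7 members, ATP5C1, COA1, COX19, COX5B, COX6B1, UQCC1 and UQCR10, depended on the scaling, and the interval of each included 1. These intervals cover counting error, and not the spread between cultures or the choice of scaling. In bulk RNA, less RNA per cell and fewer cells of a kind cannot be told apart.

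**Figure D1:**
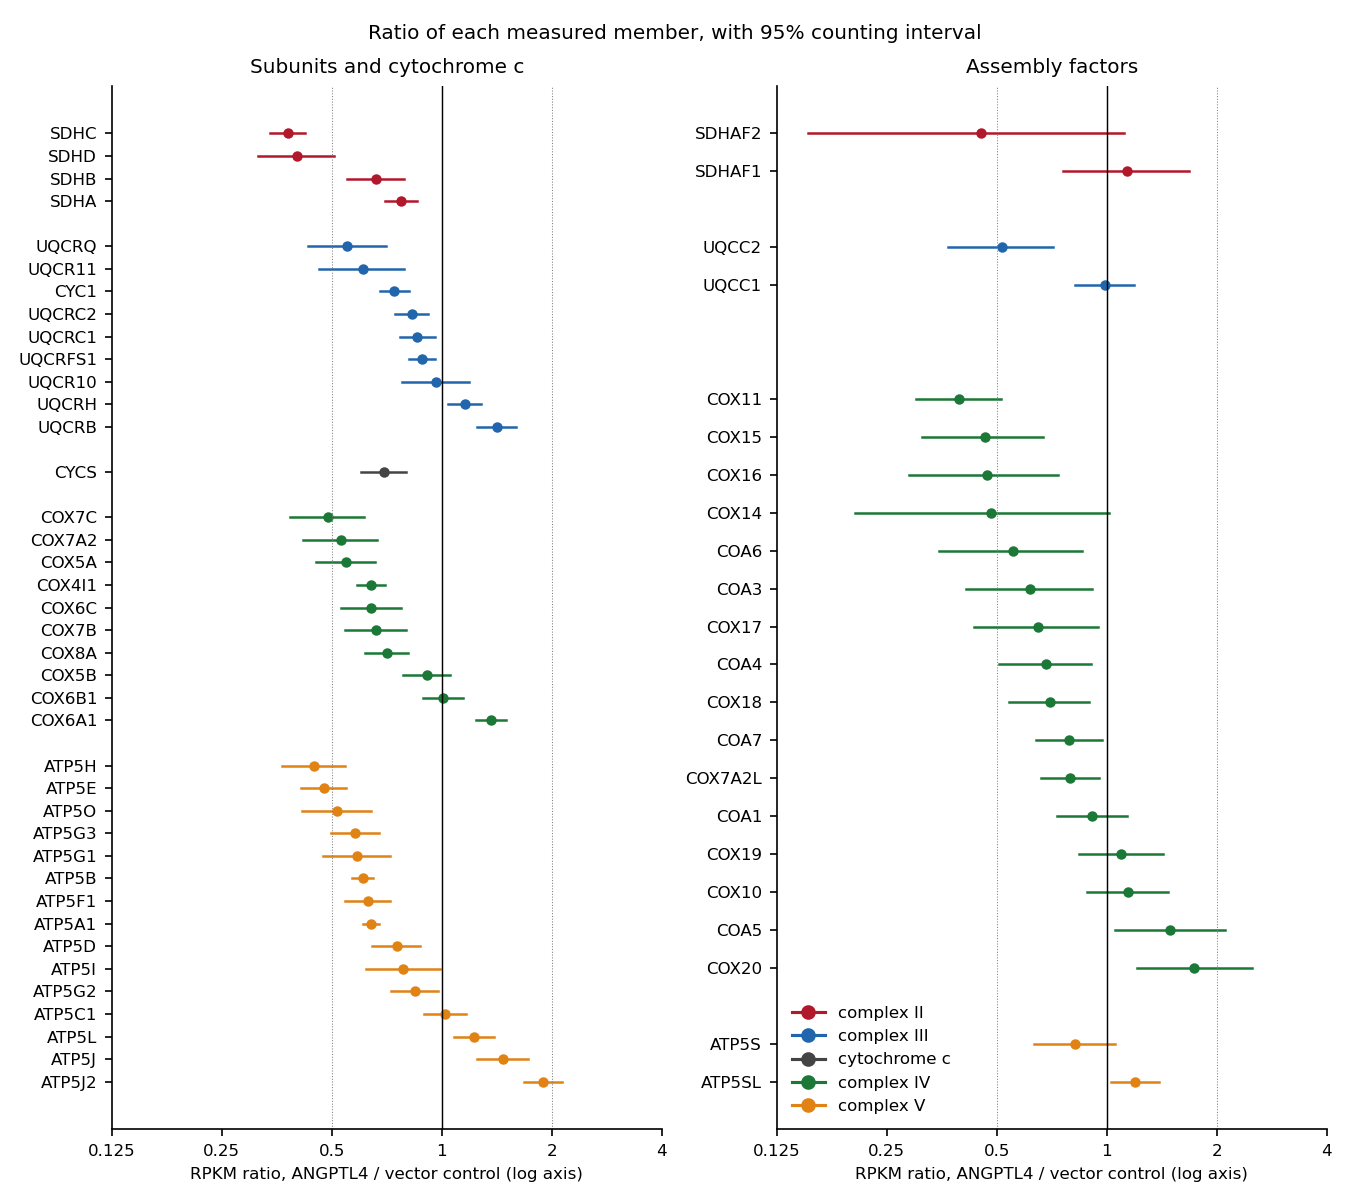
RPKM ratio of ANGPTL4 over vector control for the 61 measured members (log axis), subunits and cytochrome c on the left and assembly factors on the right, colored by complex. ATP5SL is colored as complex V by its name. Points are ratios, bars are exact 95% counting intervals, and dotted lines mark 2-fold; for SDHD and UQCR11, which have 2 rows each, the row with more reads is drawn. Most points sit left of 1, from SDHC at 0.379, and the farthest to the right is ATP5J2 at 1.89.

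Promoter sequence was not used in the choice by name. RefSeq promoter windows (GRCh38.p14, 250 bases before to 50 after the start, the first window listed for each gene) matched 51 of the 61 measured members by symbol or synonym on the same chromosome. The members without one were ATP5B, ATP5D, ATP5G3, ATP5J2, ATP5S, COX11, COX6C, CYC1, SDHC and UQCRB. Short motifs were sought on both strands. The NRF1 motif GCATGCGC, a site type of nuclear respiratory factor 1, was in 13 of 51 members (25.5%), in 5.68% of 8881 other measured protein-coding genes and in 3.27% of all 27305 windows. The ETS motif CCGGAAG, the core bound by the GABP family, was in 21 members (41.2%), 20.5% of the other measured genes and 10.7% of all windows. The YY1 motif AAGATGGC was in 7 members (13.7%), 5.86% and 3.03%. The GC box GGGCGG was in 30 members (58.8%, against 72.3% and 44.6%), the CCAAT box in 19 (37.3%, against 37.3% and 35.7%) and TATAAA in 4 (7.84%, against 5.37% and 11.95%). The NRF1 motif reads nearly the same on both strands, so its matches on opposite strands can overlap. The median log2 ratio of members with and without a motif was -0.43 and -0.50 for the NRF1 motif, -0.50 and -0.47 for the ETS motif, -0.58 and -0.46 for the YY1 motif, -0.54 and -0.35 for the GC box, -0.50 and -0.49 for the CCAAT box, and -0.41 and -0.50 for TATAAA. These shares are descriptions, and a match is not a bound site.

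The 150 bases before the start are shown for the members past 2-fold that have a window (SDHD, ATP5H and ATP5E) and for the 2 members with the highest log2 ratio that have one (COX20 and ATP5J), so that the lower and higher ends can be read side by side. Capitals mark matches to the motifs above. Coordinates are GRCh38.p14 and sequences run 5′ to 3′ on the gene's strand. They are chr11:112086723-112086872 (+) for SDHD, chr17:75046970-75047119 (-) for ATP5H, chr20:59032336-59032485 (-) for ATP5E, chr1:244835326-244835475 (+) for COX20 and chr21:25735055-25735204 (-) for ATP5J.
SDHD: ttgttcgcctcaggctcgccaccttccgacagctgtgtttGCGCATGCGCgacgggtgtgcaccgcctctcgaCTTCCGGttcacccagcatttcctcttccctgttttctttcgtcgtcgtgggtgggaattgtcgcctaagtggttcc
ATP5H: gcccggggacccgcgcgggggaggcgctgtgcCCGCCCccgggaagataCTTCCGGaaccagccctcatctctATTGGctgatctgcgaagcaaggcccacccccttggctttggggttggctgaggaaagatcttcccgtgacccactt
ATP5E: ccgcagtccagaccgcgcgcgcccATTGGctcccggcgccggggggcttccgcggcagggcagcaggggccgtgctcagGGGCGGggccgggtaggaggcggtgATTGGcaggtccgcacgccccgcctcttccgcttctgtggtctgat
COX20: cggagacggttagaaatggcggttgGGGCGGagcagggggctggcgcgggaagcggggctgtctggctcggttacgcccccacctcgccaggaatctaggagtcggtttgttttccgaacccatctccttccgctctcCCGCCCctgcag
ATP5J: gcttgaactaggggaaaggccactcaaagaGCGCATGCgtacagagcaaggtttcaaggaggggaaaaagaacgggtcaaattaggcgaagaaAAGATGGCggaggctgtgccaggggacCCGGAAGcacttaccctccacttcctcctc

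In the SDHD stretch the NRF1 motif, which matches on both strands, begins 110 bases before the start and the ETS motif 77 bases before it. ATP5H has a GC box at 118 bases, an ETS match at 101 and a CCAAT box at 77, all on the other strand. ATP5E has CCAAT boxes on the other strand at 126 and 46 bases and a GC box at 71. ATP5J, which had a higher value, carries an NRF1 match at 120, a YY1 match at 57 and an ETS match at 30 bases, and COX20 has GC boxes alone. NRF1 and ETS matches thus stood in promoters of members with lower and with higher values.

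Complex II had the lowest median. The membrane anchors, which hold the enzyme in the inner membrane and bind ubiquinone, had the lowest log2 ratios of all members, and the catalytic subunits were lower by less. SDHC (chromosome 1, 161284047 to 161332984, hg19) had 2142 and 399 reads, or 23.1 RPKM with the vector and 8.75 RPKM with ANGPTL4. Its ratio was 0.379 (0.339 to 0.422) and its log2 ratio -1.31. SDHD (chromosome 11, 111957497 to 111990353, larger row) was at 21.0 and 8.15 RPKM summed over 2 rows, a log2 ratio of -1.26. For its larger row, from 426 and 84 reads, the ratio was 0.401 (0.313 to 0.508), and the smaller row held 12 and 0 reads. SDHD carries, in its promoter, the NRF1 and ETS motifs shown above, and its region overlaps that of TIMM8B, at 13.1 and 7.16 RPKM.

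SDHA, the flavoprotein that oxidises succinate, was at 25.9 and 20.03 RPKM (ratio 0.774, 0.699 to 0.854). SDHB, the iron-sulfur subunit that carries electrons onward, was at 32.1 and 21.2 RPKM (0.661, 0.552 to 0.787). All 4 subunits therefore had intervals below 1, as did 43.3% of other protein-coding genes with at least 10 RPKM in the control. The interval of SDHC ended below where those of SDHA and SDHB began. The ANGPTL4 library had the lower value of every subunit. SDHA has 3 related pseudogene rows, all with reads, of which SDHAP1 was at 6.62 and 4.52 RPKM, and the split of reads among these copies is not known. The 4 pseudogene rows named after SDHC and the 2 named after SDHD were listed at 0 in both libraries.

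The assembly factors of complex II were low. SDHAF1, needed for the iron-sulfur subunit, was at 10.1 and 11.5 RPKM (ratio 1.14, 0.761 to 1.68). SDHAF2, needed to attach flavin to SDHA, was at 1.65 and 0.745 RPKM from 27 and 6 reads (0.452, 0.153 to 1.12). Neither difference was detectable at this depth. The median log2 ratio over the 6 complex II genes was -0.59, and over its 4 subunits -0.92.

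Complex III showed the smallest shift. Its 11 genes had a median log2 ratio of -0.22, against -0.11 over all measured genes. Of the 11, 9 had a lower value (81.8%, against 64.4% of all measured genes). By at least 1.5-fold 3 were lower (27.3%, against 9.25%) and by 2-fold none (against 1.92%). The proteins that carry the electrons were lower by modest amounts. UQCRFS1, the Rieske iron-sulfur protein, had 74.6 and 65.9 RPKM (ratio 0.884, 0.813 to 0.960), and CYC1, cytochrome c1, at 136 and 101.0 RPKM (0.742, 0.677 to 0.812, log2 ratio -0.43). Of the core proteins, which form the matrix-facing part, UQCRC1 was at 51.1 and 43.9 RPKM, and UQCRC2 at 38.3 and 31.8 RPKM. The intervals of these 4 large, abundant subunits lay below 1, at most 0.960 at the upper bound. So did those of 43.3% of other protein-coding genes with at least 10 RPKM in the control. These small differences depended on the scaling. After upper-quartile scaling the log2 ratios were -0.01 for UQCRFS1, -0.06 for UQCRC1, -0.10 for UQCRC2 and -0.26 for CYC1.

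The small subunits of complex III pointed both ways. UQCRQ, which binds near cytochrome b, was at 32.8 and 18.1 RPKM (ratio 0.551, 0.429 to 0.702, log2 ratio -0.82). UQCR11 was at 27.3 and 16.4 RPKM over 2 rows (log2 ratio -0.70), and its region overlaps that of MBD3, at 8.09 and 6.34 RPKM. UQCR10 was at 43.7 and 42.2 RPKM (0.966, 0.779 to 1.19), a difference within counting error.

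On the higher side, UQCRH, the acidic hinge protein beside cytochrome c1, was at 103 and 119.5 RPKM (ratio 1.16, 1.04 to 1.28, log2 ratio 0.21). UQCRB, which helps bind ubiquinone, was at 10.1 and 14.3 RPKM (1.42, 1.25 to 1.60, log2 ratio 0.46). Both have pseudogene rows, 4 and 3, all listed at 0. Of the assembly factors for cytochrome b, UQCC2 was at 6.78 and 3.50 RPKM (0.516, 0.368 to 0.712, log2 ratio -0.79) and UQCC1 at 7.79 and 7.69 RPKM (0.988, 0.818 to 1.19). The intervals of these partner proteins did not overlap. CYCS, the somatic cytochrome c that shuttles between complexes III and IV, was at 25.7 and 17.8 RPKM (ratio 0.694, 0.600 to 0.8003, log2 ratio -0.50).

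**Figure D2:**
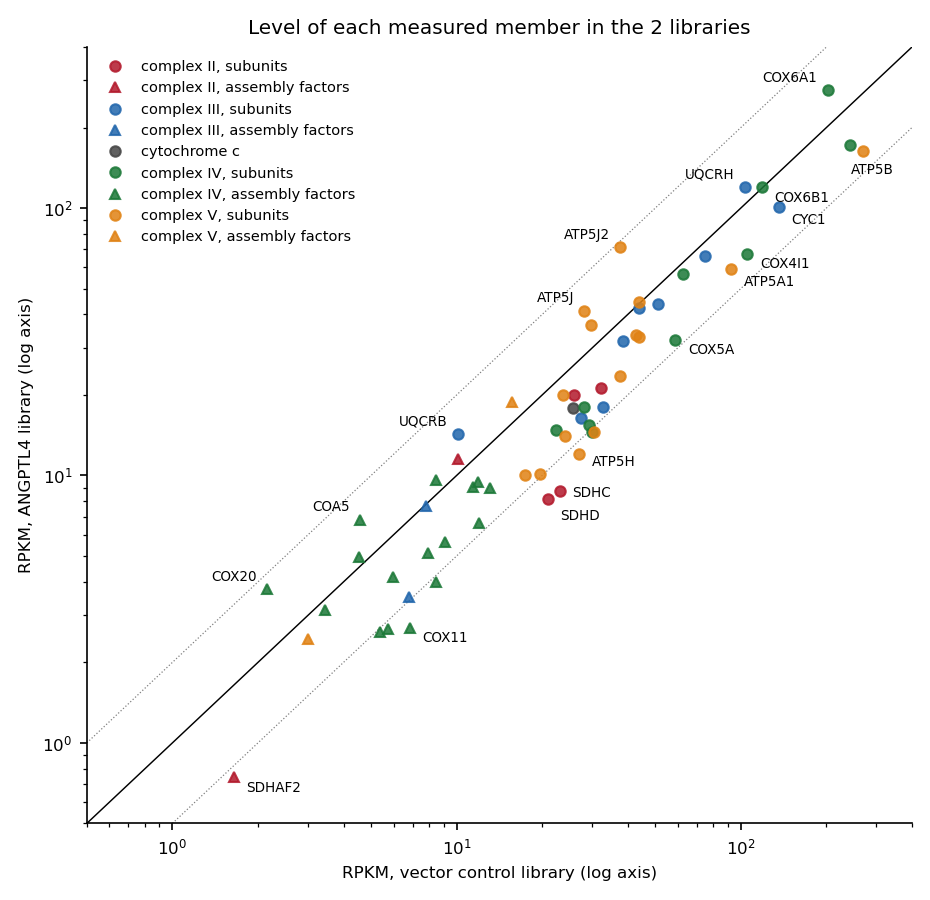
RPKM of each measured member in the vector control library (x) and in the ANGPTL4 library (y), both on log axes, circles for subunits and cytochrome c and triangles for assembly factors. The solid line marks equal values and the dotted lines 2-fold. Points lie mostly below the solid line across the range, from SDHAF2 at 1.65 and 0.745 RPKM to ATP5B at 268.9 and 163.5 RPKM.

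Complex IV had a median log2 ratio of -0.52 over 26 genes, against -0.11 over all measured genes. Of the 26, 20 were lower in the ANGPTL4 library (76.9%, against 64.4% of all measured genes). By at least 1.5-fold 11 were lower (42.3%, against 9.25%) and 1 was higher (against 3.08%). Among the 10 measured subunits of complex IV 8 were lower (against 64.4% of all measured genes), with a median of -0.59. The subunits around the catalytic core include COX4I1, where ATP binds to regulate the enzyme, at 105 and 67.4 RPKM (ratio 0.639, 0.585 to 0.698), and COX5A, which packs against it, at 58.9 and 32.2 RPKM (0.547, 0.453 to 0.658, log2 ratio -0.85). COX5B, the zinc-binding subunit, stood apart from these at 62.5 and 56.9 RPKM (0.910, 0.784 to 1.05). The interval of COX5B did not overlap those of COX5A and COX4I1. The region of COX4I1 overlaps that of EMC8, at 13.5 and 7.58 RPKM.

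The small single-helix subunits were nearly all lower. COX7C had the lowest log2 ratio among complex IV subunits, -0.99, at 29.9 and 14.6 RPKM (ratio 0.487, 0.385 to 0.612). COX7A2, at the face where dimers and supercomplexes form, was at 29.2 and 15.4 RPKM (0.529, 0.418 to 0.664). COX6C was at 28.1 and 18.04 RPKM, and COX7B at 22.3 and 14.7 RPKM (0.661, 0.544 to 0.799). COX8A, with the shortest exon length of the measured members, 507 bases, was at 242.5 and 171 RPKM (0.707, 0.615 to 0.811). COX6C has 17 pseudogene rows, all listed at 0 in both libraries.

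Among the remaining subunits, COX6B1 showed no difference beyond counting error and COX6A1 was higher. COX6B1, which faces cytochrome c on the outer side, was at 119 and 119.6 RPKM (ratio 1.01, 0.886 to 1.14). COX6A1 was at 201.8 and 275.5 RPKM (1.37, 1.244 to 1.497, log2 ratio 0.45), the highest level of all members in the ANGPTL4 library. Its processed pseudogene COX6A1P2 (chromosome 6, 37012607 to 37013177) was at 1.33 and 19.5 RPKM, in the same direction. How reads were shared between them is not known, and its part in the values of COX6A1 was not tested.

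The tissue isoforms of these subunits were nearly silent. COX4I2 (a lung and hypoxia isoform), COX6A2 (heart and muscle), COX7B2 and COX8C (both testis) were listed at 0 in both libraries, as were ATP5L2 and ATP5J2LP, the last annotated as a processed pseudogene. With the 3 reads that a count of 0 allows, levels of up to 0.566 to 1.94 RPKM in the control and 1.15 to 3.95 RPKM in the ANGPTL4 library would remain possible for these 6, taking GENCODE exon lengths. COX6B2, the testis form, had 7 and 3 reads (0.291 and 0.253 RPKM, ratio 0.871, 0.145 to 3.82), and COX7A1, the heart and muscle form, 0 and 1. At 0 reads COX7A1 could reach 0.454 RPKM in the control. These 8 are the members below 1 RPKM in both libraries, and the paired isoforms COX4I1, COX6A1, COX6B1, COX7A2, COX7B and COX8A held nearly all reads.

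The assembly factors of complex IV were expressed at lower levels, 2.16 to 13.1 RPKM in the control. In the ANGPTL4 library 12 of 16 were lower, against 64.4% of all measured genes. The median log2 ratio of the 16 was -0.47, against -0.11 over all measured genes. COX11, which delivers copper to the CuB site, was at 6.83 and 2.70 RPKM from 350 and 68 reads (ratio 0.395, 0.30 to 0.513, log2 ratio -1.08). COX15, which makes haem A, was at 5.75 and 2.67 RPKM (0.463, 0.313 to 0.669), whereas COX10, which makes the haem O it works on, was at 8.44 and 9.65 RPKM (1.14, 0.885 to 1.47). The intervals of this enzyme pair did not overlap.

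Among the other copper proteins, COX17, the copper chaperone, was at 7.92 and 5.13 RPKM, COX19 at 4.53 and 4.97 RPKM, COA6 at 11.98 and 6.64 RPKM, and COX16 at 8.49 and 3.98 RPKM (ratio 0.469, 0.288 to 0.737, log2 ratio -0.93). The region of COX16 overlaps that of the read-through gene SYNJ2BP-COX16, at 17.2 and 8.75 RPKM, so reads could be given to either. Factors for the mitochondrially encoded COX1 and COX2 proteins were COX14 at 5.39 and 2.59 RPKM (38 and 9 reads, 0.481, 0.205 to 1.01), COA3 at 9.10 and 5.63 RPKM, COX18, which exports the COX2 tail, at 5.98 and 4.18 RPKM, and COX20, which chaperones COX2, at 2.16 and 3.75 RPKM. COX20 had the highest log2 ratio of complex IV, 0.59 (ratio 1.74, 1.207 to 2.497, from 69 and 59 reads), and its interval did not overlap that of COX18 (0.542 to 0.894), which serves the same subunit.

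The rest of the group was mixed. COA5 was at 4.58 and 6.83 RPKM (ratio 1.49, 1.06 to 2.10, log2 ratio 0.49). COA4 was at 13.1 and 8.95 RPKM, COA7 at 11.5 and 9.03 RPKM, and COA1 at 3.44 and 3.14 RPKM. COX7A2L, which joins complexes III and IV into supercomplexes and resembles COX7A2, was counted here with the assembly factors. It was at 11.9 and 9.43 RPKM (0.795, 0.662 to 0.951).

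Complex V held the highest member and a pair of the 5 lowest. Its 17 genes include ATP5SL, counted here by name. Of the 17, 12 were lower (70.6%, against 64.4% of all measured genes) and 5 higher. The median log2 ratio was -0.40, or -0.63 over the 15 subunits. The catalytic head was lower. ATP5B, the beta subunit that holds the catalytic sites, was the most abundant member of the control library at 268.9 RPKM, against 163.5 RPKM in the ANGPTL4 library (4008 and 1199 reads, ratio 0.608, 0.570 to 0.649). ATP5A1, its alpha partner in the same ring, was at 92.5 and 59.2 RPKM (0.640, 0.610 to 0.672). The intervals of this pair overlapped.

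The rotor stalk inside the head was less even. ATP5C1, the gamma shaft, was at 43.7 and 44.5 RPKM (ratio 1.02, 0.892 to 1.16). ATP5D, the delta subunit, was at 43.8 and 33.0 RPKM (0.753, 0.647 to 0.874). ATP5E, the epsilon subunit bound to both (chromosome 20, 57600522 to 57607437), was at 30.4 and 14.5 RPKM (1025 and 240 reads, 0.476, 0.412 to 0.548, log2 ratio -1.02). The intervals of these 3 stalk proteins did not overlap, although the proteins occur together in the enzyme.

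The ring of c subunits that turns with the proton flow comes from 3 genes whose mature proteins are identical. ATP5G1 was at 24.03 and 14.1 RPKM (ratio 0.586, 0.474 to 0.720), ATP5G2 at 23.7 and 19.99 RPKM (0.844, 0.727 to 0.978), and ATP5G3 at 17.4 and 10.1 RPKM (0.580, 0.497 to 0.674). Together they were at 65.1 and 44.2 RPKM. ATP5G2 was lower by less than the others, with an interval above both, and had the highest level of the 3 in the ANGPTL4 library.

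The peripheral stalk and the membrane part held both ends of the complex. On the stalk, ATP5H, subunit d (chromosome 17, 73034958 to 73043080), was at 27.0 and 12.1 RPKM (573 and 126 reads, ratio 0.447, 0.366 to 0.543), the lowest log2 ratio of the complex at -1.10. ATP5O, which ties the stalk to the head, was at 19.6 and 10.1 RPKM (0.517, 0.415 to 0.639, log2 ratio -0.89), and ATP5F1, subunit b, at 37.5 and 23.5 RPKM (0.627, 0.543 to 0.722). ATP5J, the stalk subunit F6, went the other way, at 28.1 and 41.3 RPKM (378 and 273 reads, 1.47, 1.25 to 1.72, log2 ratio 0.54). Its region overlaps that of GABPA, a GABP subunit gene, which was at 6.42 and 5.75 RPKM.

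In the membrane part, ATP5J2, subunit f, had the highest log2 ratio of all 61 members, 0.90. Its 567 and 527 reads gave 37.7 and 71.2 RPKM, 1.89 times the control level (1.68 to 2.13). The overlapping read-through gene ATP5J2-PTCD1 was at 1.17 and 2.70 RPKM (22 and 25 reads), and PTCD1 at 2.55 and 1.46 RPKM. ATP5L, subunit g, was at 29.6 and 36.4 RPKM (1.23, 1.08 to 1.39), whereas ATP5I, subunit e, which binds g where dimers form, was at 42.7 and 33.6 RPKM (0.785, 0.619 to 0.991).

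Summed over the 7 peripheral stalk and membrane subunits, the levels were 222 and 228 RPKM, so lower and higher members offset each other there. The sum over the 5 subunits of the head and central stalk was 479 and 315 RPKM. ATP5S, also called coupling factor B, was at 2.99 and 2.45 RPKM (ratio 0.819, 0.631 to 1.05). ATP5SL, a protein of complex I assembly, was counted with complex V by its name alone. It was at 15.7 and 18.8 RPKM (1.199, 1.03 to 1.39, log2 ratio 0.25). Differences between the medians of the complexes were not tested.

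**Figure D3:**
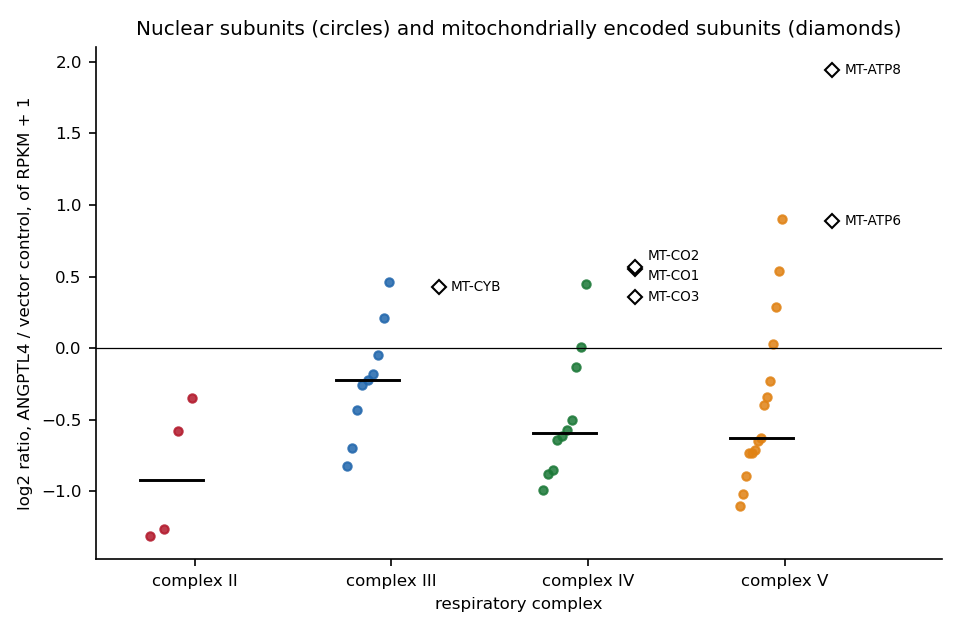
log2 ratio of RPKM plus 1, ANGPTL4 over vector control (y), for nuclear subunits (circles, with the median as a bar) and mitochondrially encoded subunits (diamonds) of complexes II to V (x), assembly factors left out. The diamonds lie between 0.36 and 1.94, and the medians of the nuclear subunits between -0.92 and -0.22.

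The subunits that mitochondrial DNA encodes for the same complexes had higher values in the ANGPTL4 library, all 6 of 6. Among all 11801 measured genes 4197 had a higher value. The median log2 ratio of the 6 was 0.56, and 0.39 to 0.73 under the scalings tried. MT-CO1, the catalytic subunit of complex IV, was at 7217 and 10583 RPKM. MT-CYB, cytochrome b of complex III, was at 1658 and 2234 RPKM. At the ends were MT-CO3 at 2928 and 3753 RPKM and MT-ATP8 at 4811 and 18507 RPKM. MT-ATP6 was at 6371 and 11776 RPKM and MT-CO2 at 8430 and 12558 RPKM. RPKM is relative to the whole library, mitochondrial reads included. With totals taken without mitochondrial, ribosomal protein and small RNA rows, the median over the 61 members was -0.39 and that of all measured genes -0.02.

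Complex I, which feeds electrons into the same chain, had a median log2 ratio of -0.27 over its 37 measured nuclear subunits. Of these 24 were lower (64.9%, near the 64.4% of all measured genes) and 13 higher. At least 1.5-fold lower were 10 (27.0%, against 9.25% of all measured genes) and at least 1.5-fold higher was 1 (against 3.08%). NDUFA9 was at one end (-1.16) and NDUFA7 at the other (1.03). There were 26 measured subunits and factors of complexes III to V under other names, with a median of -0.39. Of these 18 were lower (69.2%, near the 64.4% of all measured genes) and 8 higher. At least 1.5-fold lower were 6 (23.1%, against 9.25% of all measured genes) and at least 1.5-fold higher was 1 (against 3.08%). HIGD2A, a factor of complex IV, was lowest at 39.9 and 18.1 RPKM, and ATPIF1, the inhibitor that stops ATP synthase from running backwards, was highest at 19.8 and 32.5 RPKM. NDUFA4, a complex IV subunit with a complex I name, was at 21.1 and 11.3 RPKM.

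**Figure D4:**
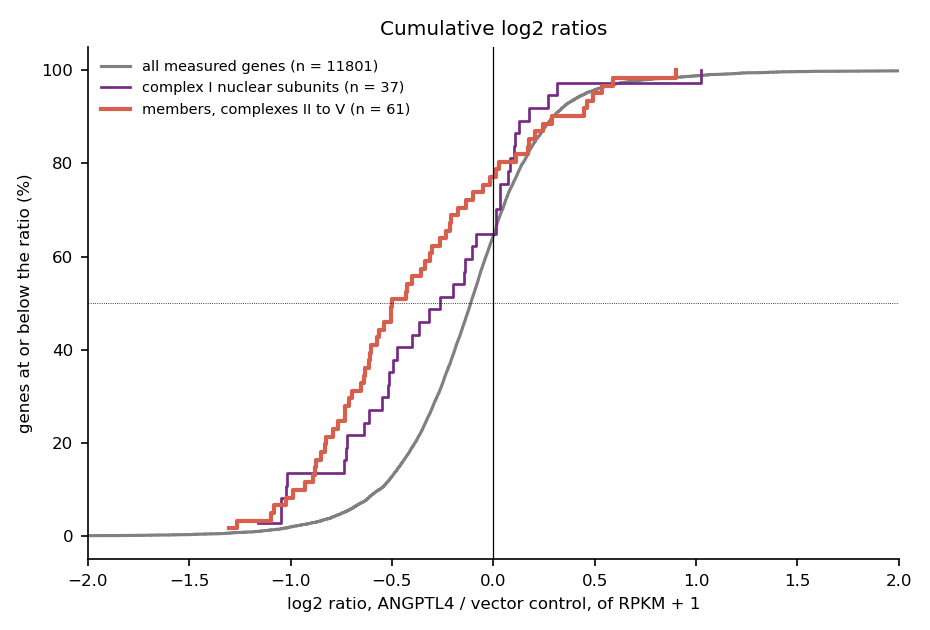
Cumulative percentage of genes (y) at or below each log2 ratio of RPKM plus 1, ANGPTL4 over vector control (x), for the 61 measured members, 37 measured nuclear complex I subunits and all 11801 measured genes. The curve of the members crosses 50% at a median of -0.50, that of complex I at -0.27 and that of all measured genes at -0.11.

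A list of regulators of respiratory gene expression held nuclear transcription factors, their coactivators and the mitochondrial transcription proteins. Of the 13 measured 9 were lower (69.2%, near the 64.4% of all measured genes), with a median log2 ratio of -0.21. At least 1.5-fold lower was 1 (7.69%, against 9.25% of all measured genes), and none was 1.5-fold higher (against 3.08%). NRF1 was at 3.17 and 3.60 RPKM, the coactivator PPARGC1B at 2.86 and 3.36 RPKM, and PPARGC1A was listed at 0 in both. The ends were TFB1M, a mitochondrial rRNA methyltransferase, at 5.62 and 3.28 RPKM and the PGC-1-related coactivator PPRC1 at 19.1 and 26.1 RPKM. Among 15 genes of general mitochondrial content 10 were lower (66.7%, near the 64.4% of all measured genes). Of these 5 passed 1.5-fold (33.3%, against 9.25% of all measured genes). Their median was -0.13, which became 0.03 after upper-quartile scaling. VDAC3, an outer membrane channel, was lowest at 16.6 and 8.26 RPKM, TIMM23 was highest with a log2 ratio of 0.31, and citrate synthase, CS, was at 45.2 and 41.3 RPKM.

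Exon length, GC content and level were set beside the log2 ratio. Across the 61 measured members, which share both libraries and are not independent, Spearman's rho with the log2 ratio was 0.00 for exon length, 0.18 for GC content and 0.03 for the control level. In each of 4 classes of exon length the median of the members was below that of other measured protein-coding genes. For lengths under 2000 bases these medians were -0.50 over 17 members and -0.15 over 922 other genes, and for 8000 bases or more -0.28 over 6 members and -0.07 over 2304 genes. At 20 to 50 RPKM in the control they were -0.57 over 24 members and -0.15 over 1328 genes, and under 5 RPKM 0.00 over 6 members and -0.08 over 4329 genes. With exon length and GC content regressed out, the median over the members was -0.33 and over all genes with a value 0.00. Of the 104 pseudogene rows named after members, 100 were listed at 0 in both libraries, and the others were COX6A1P2 and 3 named after SDHA.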

How the data were processed

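The authors deposited RPKM, 1 value per gene row and library, per the file headers. The submitters' processing notes name hg19. The aligner, counting program, annotation, strand and handling of multiply matching reads are not given in the sources used here. Rows of 1 gene name were summed. Library totals were found as the smallest whole number at which all 13 mitochondrial genes gave whole reads (tolerance 0.001 reads). Exon length was then the whole number, nearest the GENCODE 29 exon length, at which both libraries gave whole reads. It was settled for 58 of the 61 measured members and for 82.2% of all rows above 0 in a library. For COX4I1, COX6A1 and UQCR11, and for unsettled rows of other genes, the smallest such length was used, so their reads are minimum numbers. Intervals are exact 95% (Clopper-Pearson) intervals from reads and depths, computed with scipy 1.17.1, and cover counting error only.

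The log2 ratio uses a pseudocount of 1 RPKM, which understates differences of low genes. Levels are per exon length over all annotated exons, so genes with long annotated exons read low. Full values are given for members past 2-fold, the 2 ends of each complex and isoform pairs; every other measured member is named with its RPKM. The members, lists and rules were chosen with earlier results of these data known. GENCODE and RefSeq follow another build, and their coordinates were kept apart from hg19. Alternatives were other pseudocounts, minimum levels, scalings and totals, a lowess correction for exon length and GC content, and narrower sets of members. Procedures were tested on simulated libraries.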

Additional observations from a re-analysis of the deposited data

How the results depend on the processing

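The median log2 ratio of the members stayed below 0 under every alternative run, between -0.66 (each library rescaled to a fixed total) and -0.33, and so did the medians of complexes II, III, IV and V and of cytochrome c. CYCS moved from -0.50 to -0.32 with exon length and GC content regressed out. The counts depended more on the setting. The 5 members at least 2-fold lower became 10 with a pseudocount of 0.1, 1 with 5, 11 with a fixed total, and 2 after centring on the median gene, after upper-quartile scaling, with totals taken without mitochondrial, ribosomal protein and small RNA rows, or after correction for length and GC; under the last 4 settings 1 member, ATP5J2, was 2-fold higher. The 25 at least 1.5-fold lower became 16 with a pseudocount of 5 and 15 with upper-quartile scaling, and 28 with a pseudocount of 0.1 and 32 with a fixed total. The 2 at least 1.5-fold higher became 1 with a pseudocount of 5, with a minimum of 5 RPKM, with a fixed total or without assembly factors, 4 after centring, and 6 with upper-quartile scaling or after the correction. Of the 61 members 54 kept their sign under every scaling, pseudocount and correction, and ATP5C1, COA1, COX19, COX5B, COX6B1, UQCC1 and UQCR10 did not, each within 0.13 of 0 in the values reported. No paired analysis was possible because each group has 1 library. Nor could a replicate be left out. Depth limits the low members: for SDHAF2 and COX14, with 6 and 9 reads in the ANGPTL4 library, intervals included 1.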
